A study of Oryctolagus cuniculus with 20 samples.

Results

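KDR, SELE and VCAM1, 3 endothelial genes of 888 genes named on the array, were followed through 5 groups of rabbit jaw joint cartilage. Their members on the microarray are all probes whose gene name or description is KDR, SELE or VCAM1, which gave 12 of the 43603 probes: 1 for KDR, 6 for SELE and 5 for VCAM1. Under the current symbols alone only 1 probe, that for KDR, would have been found. The array files name SELE by its older symbol ELAM1 and VCAM1 as VCAM-1, and both were resolved through a RefSeq table of rabbit genes. The rule that picks the probes uses names alone, and the choice of these 3 genes was made with earlier results of the data known.

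KDR encodes VEGF receptor 2, the receptor tyrosine kinase through which VEGF-A drives endothelial cells to divide and migrate when vessels grow. SELE encodes E-selectin, which endothelial cells place on their surface after exposure to inflammatory cytokines and which slows passing leukocytes into rolling. VCAM1 encodes the adhesion molecule that holds leukocytes through the VLA-4 integrin; it is induced on endothelium by the same cytokines, and synovial fibroblasts and other mesenchymal cells also make it. Healthy hyaline cartilage holds no vessels, whereas the bone beneath it and the synovium around it do.

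Condylar cartilage, the tissue covering the articular head of the mandible, came from male rabbits labelled as 6 months old. The 16 animals of the derangement groups had internal derangement (ID) of the left temporomandibular joint (TMJ) and were sampled 1, 2, 4 or 8 weeks later, with 4 animals at each time. The control group was 4 untreated rabbits, whose joint side and sampling time are not labelled, and no group is labelled as sham-treated. What the procedure or elapsed time did cannot be told apart from what derangement did. Total RNA, of which 0.2 ug was labelled per sample, was hybridised to 20 one-colour arrays.

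Each level below is the log2 signal of a probe minus the 75th percentile of its own array, so that 0 is that percentile and 1 unit is a doubling. Between 49.1% and 66.4% of spots per array were well above background, and 1-week replicate 4 had the lowest share and the lowest 75th percentile of signal (174.1, against up to 642.9). Each group occupied a slide of its own, so slide and group cannot be told apart. Control and 2-week arrays were scanned on 1 day and the 1-, 4- and 8-week arrays on another. The cartilage markers COL2A1, ACAN, CNMD and COL10A1 were above background on 20 of 20 arrays, and SOX9, the cartilage transcription factor, on 8. Of 22 endothelial markers only 5 had a named probe. VWF, the defining endothelial product, was above background on 0 of 20 arrays and the VEGF receptor FLT1 on 2, while NOS3 and THBD were on all 20 and ACE on 19. Skeletal muscle genes were high in control replicates 1 and 2, whose median level over 14 muscle genes was 2.16 and 4.25 against -1.37 and -1.85 in the other control arrays and -4.72 to -2.3 in all derangement arrays. RNA of blood and fibrous tissue was also high. The haemoglobin genes HBA and HBB2 were above background on all 20 arrays, with a median level of 4.78 to 8.4. COL1A2, of the fibroblast and synovial lining list, had a control mean of 9.78, beside 8.98 for COL2A1.

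Every member was read by probes of 60 bases, and probes of the same gene were seen on different numbers of arrays. The following 5 probes are shown because they are the single reader of KDR, the SELE probe with the highest single value, and the 3 upstream VCAM1 probes that were dim on most arrays. Capitals mark the 20 bases that the first and second VCAM1 probes share.

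KDR probe, start 281: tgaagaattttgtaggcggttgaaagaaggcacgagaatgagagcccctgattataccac
SELE probe, start 1300: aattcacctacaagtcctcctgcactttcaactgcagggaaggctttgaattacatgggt
VCAM1 probe, start 1970: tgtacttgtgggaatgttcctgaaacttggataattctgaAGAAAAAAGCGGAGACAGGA
VCAM1 probe, start 2010: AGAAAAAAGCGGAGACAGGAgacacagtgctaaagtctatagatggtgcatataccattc
VCAM1 probe, start 2087: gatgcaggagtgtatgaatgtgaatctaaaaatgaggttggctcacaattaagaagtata

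Sequences are written 5′ to 3′ as the array files give them, and starts are counted in the sequence record that each probe is annotated to. The KDR and SELE probes hold 45% G and C, and the 3 VCAM1 probes 40%, 41.7% and 35%. The other VCAM1 probes start at 2874 and 2934, directly next to each other, and over their 120 joined bases 0 of the 3 forward reading frames are free of a stop codon. The further SELE probes start at 1828, 1887, 2008 and 2132, and the last, at 8541, is annotated to another record. Probes of 1 gene read the same RNA sample and are no replicates of a condition. The arrays name the probes' genome positions as unmapped, so no coordinates are given.

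Only 5 of the 12 member probes were well above background on at least 3 arrays of any group and entered the tests: the KDR probe, the SELE probes at 1300 and 1828, and the VCAM1 probes at 2874 and 2934. The KDR probe was above background on 18 of 20 arrays. The VCAM1 probes at 2874 and 2934 were on 19 arrays each, all but 1-week replicate 4. The SELE probes at 1300 and 1828 were on 8 and 10 arrays. The first of these passed only through the 1-week group and the second only through the 8-week group, so each was dim in most other groups.

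The 7 probes that did not enter the tests were above background on 1 to 8 arrays. SELE probes at 1887, 2008, 2132 and 8541 were on 2, 5, 4 and 1 arrays, and the upstream VCAM1 probes at 1970, 2010 and 2087 were on 8, 5 and 5. Mean levels of these SELE probes at 1 week were -5.92, -5.22, -4.94 and -6.3, below -3.99, -3.89, -3.84 and -5.32 in control. None of them was above background on any 1-week array, and these differences were not tested. The means of the tested SELE probes were not lower at 1 week, as given below. All 3 upstream VCAM1 probes were seen on the same 5 arrays, namely control replicates 2 and 3, 2-week replicates 3 and 4, and 8-week replicate 3. On those 2-week arrays their levels were -2.96 and -2.57 at 1970, -2.77 and -2.15 at 2010, and -3.34 and -2.62 at 2087. The same 2-week and 8-week arrays were also the highest of their groups at the tested VCAM1 probes, as described below. No SELE probe other than that at 1828 was above background on any 2-week array.

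**Figure D1:**
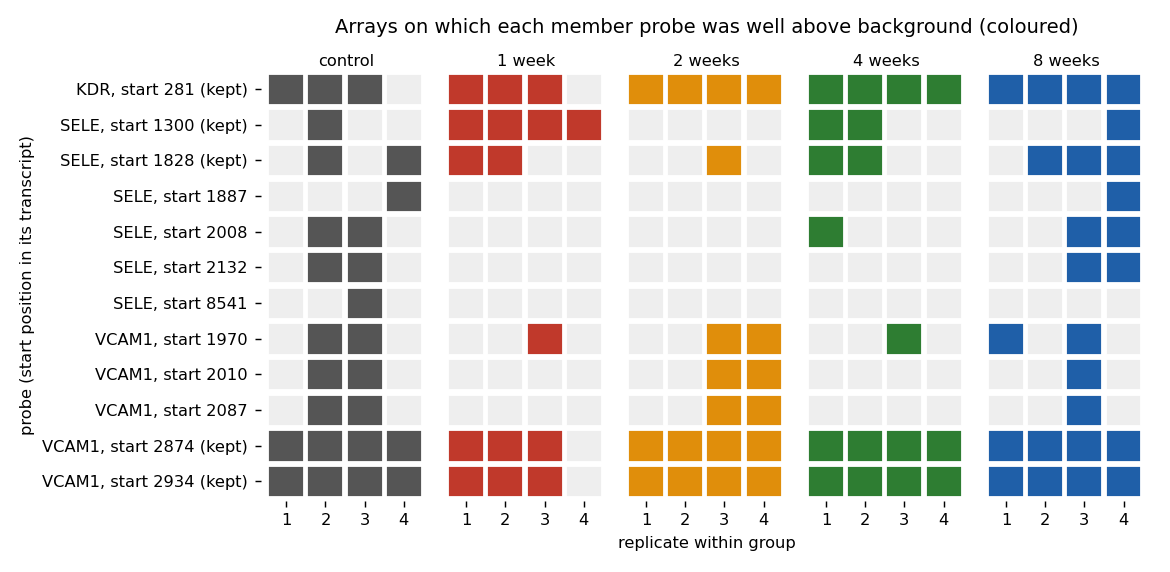
Each row is 1 of the 12 member probes, labelled by gene and start in its annotated sequence record, and each column 1 of 20 arrays by group and replicate. Coloured squares are arrays on which the probe was well above background and grey squares those on which it was not. KDR and the VCAM1 probes at 2874 and 2934 are coloured nearly throughout, while most SELE squares are grey.

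KDR was the only member whose mean was higher than control in every derangement group, but none of these differences passed the test. With normexp background correction that no longer held, with KDR at 0.07, 0.58, -0.18 and 0.01 against control at 1, 2, 4 and 8 weeks. In control the 4 levels were -3.91, -3.46, -3.02 and -3.51, a mean of -3.48 ± 0.36 (SD, n = 4). At 1 week they were -3.4, -2.06, -3.53 and -3.17 (mean -3.04 ± 0.67, SD, n = 4), with replicate 2 well above the others. At 2 weeks they were -2.49, -2.03, -2.78 and -2.39 (mean -2.42 ± 0.31, SD, n = 4). All 4 of the 2-week arrays lay above all 4 control arrays.

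KDR levels at 4 weeks were -2.79, -3.04, -3.29 and -2.94, a mean of -3.01 ± 0.21 (SD, n = 4), and 2 of the 4 lay above the highest control. At 8 weeks they were -2.51, -3.61, -2.43 and -2.58, a mean of -2.78 ± 0.55 (SD, n = 4). Replicate 2, at -3.61, lay within the control range, and the other 3 were close together and above every control array. Of the 16 derangement arrays, 10 lay above the highest control level and 0 below the lowest. KDR was not well above background on control replicate 4 and 1-week replicate 4.

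The KDR difference from control at 2 weeks was 1.06 ± 0.31 on the log2 scale (SE, 95% interval 0.41 to 1.7), a fold of 2.08. Its unadjusted limma p was 0.00297, the 372nd lowest of 26905 probes, and its adjusted p was 0.215. In this comparison 0.457% of all tested probes were called at adjusted p under 0.05, and 4.29% had all 4 of their 2-week arrays above all control arrays, as KDR did. Within the scan day that these groups shared, the adjusted p was 0.197. With normexp background correction the difference was 0.58 (adjusted p = 0.969). The difference was 0.44 ± 0.31 at 1 week (adjusted p = 0.361), 0.46 ± 0.31 at 4 weeks (adjusted p = 0.384) and 0.69 ± 0.31 at 8 weeks (adjusted p = 0.151). Without 8-week replicate 2 the last rose to 0.97 and its adjusted p fell to 0.0419.

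In ascending order the KDR means ran control, 1 week, 4 weeks, 8 weeks, 2 weeks, and no neighbours in that order differed beyond their spread. The F test for any difference among the 5 groups gave an adjusted p of 0.133 for KDR, where 15.8% of all probes were called. Without 1-week replicate 2 that p was 0.0346, and KDR was then 0.94 higher at 2 weeks than at 1 week (adjusted p = 0.0343, against 0.62 and 0.206 with all arrays). From 2 to 4 weeks KDR changed by -0.59 ± 0.31 (SE, adjusted p = 0.308), with all 4 of the later arrays lower, as held for 6.38% of all probes. In a bulk sample, fewer cells of a type and less RNA per cell cannot be told apart.

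Beside KDR at 2 weeks, the median level of the 3 measured endothelial markers, NOS3, THBD and ACE, ran from -0.84 to -0.38 there and from -0.6 to -0.1 in control, and 0 of 3 were called. At 8 weeks that median ran from 0.32 to 1.37, above every control array, and again 0 of 3 were called. Of all tested probes, 13.9% had all their 8-week arrays above all controls, and these groups were scanned on different days. The skeletal muscle list, with 6 of 14 genes called lower at 2 weeks, ran from -4.64 to -2.87 against -1.85 to 4.25 in control. Its part in the KDR difference was not tested. Without control replicates 1 and 2, where muscle RNA was highest, the KDR difference was 0.85 (adjusted p = 0.71). The remaining control arrays were at -1.37 and -1.85 on the muscle list, still above every 2-week array. Leaving those replicates out therefore cannot tell muscle RNA and group apart.

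**Figure D2:**
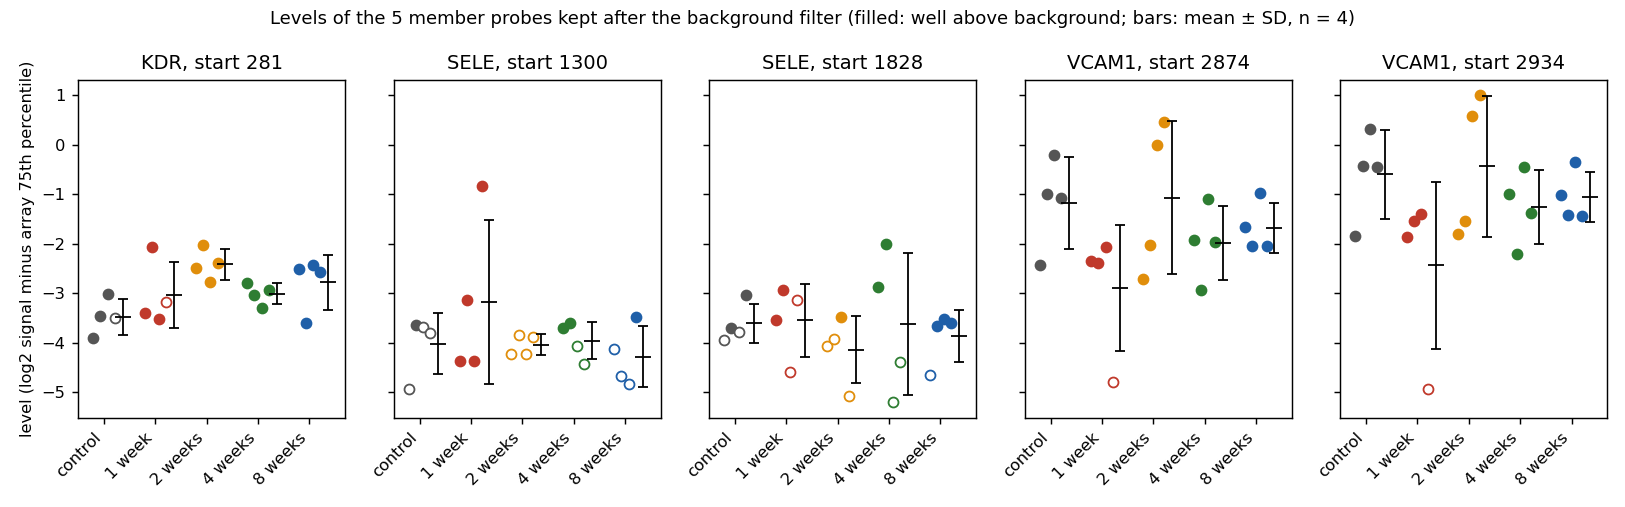
Each panel is 1 of the 5 tested member probes, with its level (log2 signal minus the array's 75th percentile) on the vertical axis and the 5 groups on the horizontal axis. Points are single arrays, filled where the probe was well above background; bars beside them are the mean and SD of 4 arrays. The 2-week KDR points all sit above the control points, and 1 array at 1 week stands apart upwards at SELE 1300 and downwards at both VCAM1 probes.

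SELE was near the detection limit in all groups, and none of its differences between groups passed the test. At the probe starting at 1300, the control levels were -4.94, -3.64, -3.69 and -3.8, a mean of -4.02 ± 0.62 (SD, n = 4), of which only replicate 2 was above background. The 1-week levels were -4.37, -3.13, -4.37 and -0.84, a mean of -3.18 ± 1.66 (SD, n = 4), and all 4 were above background. Replicate 4 alone set that mean apart, against -3.13 on the next highest array of any group. The difference from control was 0.84 ± 0.57 (SE, 95% interval -0.37 to 2.04, adjusted p = 0.35), and without that array it was 0.06 (adjusted p = 0.946).

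At the later times the same SELE probe stayed low. Its 2-week levels were -4.22, -3.84, -4.22 and -3.88, none of them above background. From 1 to 2 weeks the difference was -0.86 ± 0.57 (SE, adjusted p = 0.357), and without 1-week replicate 4 it was -0.08 (adjusted p = 0.935). The probe was tested only because it was above background at 1 week. The 4-week levels were -3.71, -3.61, -4.07 and -4.42, and the 8-week levels -4.12, -4.67, -4.83 and -3.48. Both groups overlapped the control range, with differences of 0.06 ± 0.57 and -0.26 ± 0.57 (SE, adjusted p = 0.966 and 0.816).

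At the SELE probe starting at 1828, the control levels were -3.94, -3.71, -3.78 and -3.03, a mean of -3.61 ± 0.4 (SD, n = 4). They were -3.55, -2.94, -4.6 and -3.14 at 1 week, and -4.07, -3.92, -3.49 and -5.07 at 2 weeks. The 4-week group held both the highest and the lowest value of all 20 arrays, -2.01 in replicate 2 and -5.2 in replicate 3, beside -2.87 and -4.39. The 8-week levels were -4.65, -3.66, -3.52 and -3.61. Differences from control ran from -0.53 ± 0.56 at 2 weeks to 0.06 ± 0.56 at 1 week (SE, adjusted p from 0.82 to 0.998 over the 4 times), and every group overlapped control.

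The interval for SELE at this probe at 2 weeks, -1.7 to 0.65, allows more than a halving of its level, and that at 1 week ran from -1.11 to 1.23. The probe at 1300 did not repeat the pattern of the probe at 1828. Across the 20 arrays their levels had a Pearson r of 0.34 and a Spearman rho of 0.42 (permutation p = 0.147 and 0.066; the adjusted p of r, over 10 pairs of member probes, was 0.245). Without the 2 arrays farthest from the median, r was 0.36. Within the 8 arrays of the first scan day r was 0.07 and within the 12 of the second 0.38.

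The VCAM1 mean was lowest at 1 week, and its levels spread widely within some groups. At the probe starting at 2934, the control levels were -1.84, -0.44, 0.31 and -0.45, a mean of -0.6 ± 0.9 (SD, n = 4). At 1 week they were -1.87, -1.54, -1.4 and -4.94, a mean of -2.44 ± 1.68 (SD, n = 4). Replicate 4 was not above background, and its value is the small positive signal that the scanner software puts in place of a low one. The other 3 arrays of that group lay beside control replicate 1 and below the other controls.

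The 2-week VCAM1 levels fell into a low and a high pair, -1.8 and -1.55 in replicates 1 and 2 against 0.57 and 1.0 in replicates 3 and 4 (mean -0.44 ± 1.43, SD, n = 4). The high pair exceeded every other array of the study. At 4 weeks the levels were -0.99, -2.21, -0.46 and -1.39 (mean -1.26 ± 0.74, SD, n = 4), and at 8 weeks -1.01, -1.43, -0.35 and -1.44 (mean -1.06 ± 0.51, SD, n = 4). Both of these groups lay within or next to the control range.

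The adjacent probe at 2874 gave nearly the same order of arrays. Its control levels were -2.43, -1.0, -0.2 and -1.08, and its 1-week levels -2.34, -2.4, -2.06 and -4.8. They were -2.72, -2.03, 0.0 and 0.45 at 2 weeks, -1.92, -2.94, -1.1 and -1.97 at 4 weeks, and -1.66, -2.04, -0.97 and -2.05 at 8 weeks. Over the 20 arrays the levels of both probes had an r of 0.99 and a rho of 0.97 (permutation p = 1e-05 for each, the smallest that 100000 resamples can give; adjusted p of r = 0.0001). The value was 0.99 within each scan day and 0.99 without the 2 farthest arrays.

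The VCAM1 difference from control at 1 week was -1.83 ± 0.75 at the probe at 2934 (SE, 95% interval -3.42 to -0.24, adjusted p = 0.116) and -1.72 ± 0.71 at that at 2874 (SE, 95% interval -3.21 to -0.24, adjusted p = 0.114). Neither passed the threshold, and the groups overlapped. Without 1-week replicate 4 the differences were -1.0 and -1.09 (adjusted p = 0.355 and 0.334). At 2, 4 and 8 weeks the probe at 2934 differed from control by 0.16, -0.66 and -0.45 (SE 0.75 each, adjusted p = 0.995, 0.645 and 0.749). The 95% intervals at those times were wide, from -1.43 to 1.75 at 2 weeks, from -2.25 to 0.93 at 4 weeks and from -2.04 to 1.14 at 8 weeks.

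Between derangement groups, the lowest adjusted p of any member was that of VCAM1 from 1 to 2 weeks. The probe at 2934 was higher by 2.0 ± 0.75 at 2 weeks (SE, 95% interval 0.4 to 3.59, adjusted p = 0.0986), and that at 2874 by 1.82 ± 0.71 (SE, adjusted p = 0.106). At 2934 this was 1.16 (adjusted p = 0.306) without 1-week replicate 4, and 1.51 (adjusted p = 0.268) without 2-week replicate 4. The probe at 2874 passed only without 2-week replicate 1, at 2.37 (adjusted p = 0.0416). At that probe all 8-week arrays were higher than all 1-week arrays, as for 3.06% of all probes, with a difference of 1.22 ± 0.71 (SE, adjusted p = 0.438). The nearest arrays there were at -2.05 and -2.06, and at the probe at 2934 the groups overlapped.

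In ascending order the VCAM1 means at 2934 ran 1 week, 4 weeks, 8 weeks, control, 2 weeks, and no neighbours differed beyond their spread. The F test gave an adjusted p of 0.255. Marker lists are given for the 1-week group, where VCAM1 was lowest. The endothelium list (3 of 22 genes measured, 0 called) was at -0.92 to 0.1 against -0.6 to -0.1 in control. Its genes THBD, ACE and NOS3 differed from control by -0.93 ± 0.45, -2.27 ± 1.06 and 0.05 ± 0.22 (SE, adjusted p = 0.181, 0.163 and 0.909). All 1-week arrays of THBD lay below all controls, as held for 5.43% of all tested probes. The cartilage list (5 genes, SOX9 called higher) had a median level of 2.86 to 6.69 at 1 week and 0.85 to 3.56 in control. The fibroblast and synovial lining list (7 of 11 genes measured, 1 called lower, LUM) was at 5.04 to 5.93 against 6.01 to 6.71, and the macrophage list (3 of 9 genes measured, 1 called lower, TLR4) at -1.21 to -0.1 against -0.08 to 0.16. The skeletal muscle list (14 of 20 genes measured, 11 called lower) was at -3.81 to -2.3 against -1.85 to 4.25. The SOX9 and TLR4 calls were lost without 1-week replicate 4, without control replicates 1 and 2, and with normexp background correction. The part of these lists in the VCAM1 values was not tested.

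**Figure D3:**
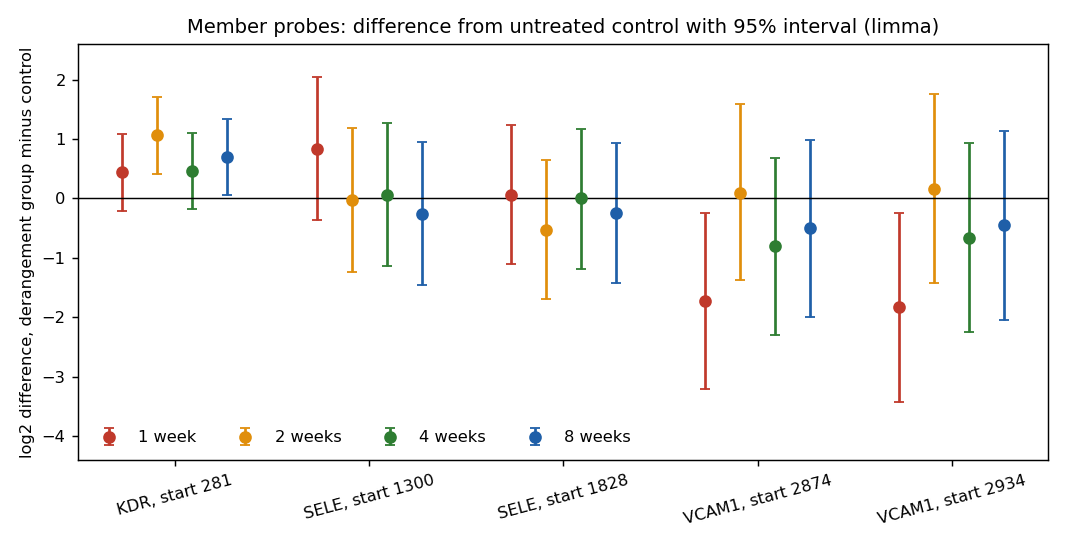
The vertical axis is the limma log2 difference of each derangement group from the untreated control, with its 95% interval, for the 5 tested member probes on the horizontal axis; colours are the times. The intervals of KDR at 2 and 8 weeks and of both VCAM1 probes at 1 week leave out 0 before adjustment, and no difference passed after it.

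Over the 5 tested probes, 10 pairwise comparisons and the F test, 0 of 55 tests passed at adjusted p under 0.05 by limma, and 7 had an unadjusted p under 0.05. Those 7 were KDR at 2 weeks, at 8 weeks and in the F test, both VCAM1 probes at 1 week, and both from 1 to 2 weeks. Of all tested probes, 7.78%, 27.4% and 32.5% had such an unadjusted p in the first 3 of these comparisons, 29.3% at 1 week and 26.7% from 1 to 2 weeks. The share of all tested probes called in the same comparisons was 13.9% at 1 week, 0.457% at 2 weeks, 8.56% at 4 weeks and 12.8% at 8 weeks against control. It was 11.4% for 2 against 1 week, 1.07% for 4 against 1, 0.0149% for 8 against 1, 4.31% for 4 against 2, 8.55% for 8 against 2, 0.561% for 8 against 4 and 15.8% in the F test. With only 5 probes of 3 genes, a count of 0 is not set apart from these shares.

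No relation between probes of different members passed adjustment over the 20 arrays, which does not show that the members vary independently. KDR and the VCAM1 probe at 2934 had an r of 0.16 and a rho of 0.16 over 20 arrays (permutation p = 0.512 and 0.496, adjusted p of r = 0.656). That r was 0.17 without the 2 farthest arrays, 0.13 within the first scan day and 0.22 within the second. SELE at 1300 and VCAM1 at 2934 had an r of -0.56 and a rho of -0.11 (permutation p = 0.0345 and 0.638, adjusted p of r = 0.137), and r was -0.02 without the 2 farthest arrays. That relation rested on 1-week replicate 4, the highest array for the first and the lowest for the second. It was -0.86 within the second scan day, which holds that array, and 0.48 within the first.

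Among VEGF ligands and receptors, 3 of 11 genes had a named probe and 2 were measured, KDR and FLT4. FLT4, the VEGF-C receptor of lymphatic endothelium, was the only one called: it rose by 1.8 ± 0.51 at 1 week (SE, adjusted p = 0.0261), from a mean of -1.64 to 0.16. At 2 weeks, where KDR was highest, FLT4 differed from control by -0.17 ± 0.51 (adjusted p = 0.991), and at 4 and 8 weeks by 1.07 ± 0.51 each (adjusted p = 0.214 and 0.186). Its other kept probe, above background on only 6 arrays, was at 1.17, 0.74, 0.98 and 1.45 at 1, 2, 4 and 8 weeks, and so went the other way at 2 weeks. The FLT4 call at 1 week was lost without control replicate 1, without 1-week replicate 2, and without 1-week replicate 4 (adjusted p up to 0.0889). The median difference of these 2 genes was 1.12, 0.44, 0.77 and 0.88 at 1, 2, 4 and 8 weeks, beside 0.03, 0.04, 0.03 and 0.04 over all probes tested.

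Of 22 angiopoietin and other vessel growth genes, 6 were measured and 0 were called in any comparison with control. NOS3, the endothelial nitric oxide synthase, differed among the 5 groups in the F test (adjusted p = 0.0469), with means of -0.4 in control, -0.35, -0.6, -0.88 and 0.05 at 1, 2, 4 and 8 weeks. That call was lost on leaving out any of 15 of the 20 arrays (adjusted p up to 0.115), all but control replicate 4, 1-week replicates 2 and 4, 4-week replicate 4 and 8-week replicate 3. ACE, the angiotensin-converting enzyme of vessel lining, had means of -1.66, -3.93, -1.35, -1.67 and 0.57 in the same order (F test adjusted p = 0.0609). All its 8-week arrays lay above all controls (2.23 ± 1.06, SE, adjusted p = 0.182), as held for 13.9% of all tested probes. HIF1A, the oxygen-sensing transcription factor upstream of VEGF-A, differed from control by -0.52 and -0.63 at 1 and 2 weeks (SE 0.25, adjusted p = 0.165 and 0.477). EDNRB, an endothelin receptor, differed by -0.3 and -0.1 at those times (SE 0.27, adjusted p = 0.5 and 0.987). The median difference of the 6 was -0.22, -0.03, -0.25 and -0.03 at the 4 times. Their median level per array ran from 0.12 to 0.36 at 8 weeks, above the control arrays at -0.47 to -0.02. Of their differences at 8 weeks, ACE was at 2.23 and NOS3 at 0.45, and the others ran from -0.33 to 0.05. ACE and NOS3 are also among the endothelial markers given above, so the higher median here is no separate observation.

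Of 18 leukocyte adhesion molecules and their partners, 4 were measured, SELE and VCAM1 included, and 0 were called in any comparison with control. P-selectin (SELP), the other selectin of endothelium, was above background on 0 of 20 arrays and ICAM1, which binds leukocyte integrins, on 1. ITGB1, the beta chain of the VCAM1 ligand VLA-4, differed from control by -0.29 ± 0.18 at 1 week and -0.16 ± 0.18 at 2 weeks (SE, adjusted p = 0.303 and 0.933). The list's median difference was -0.33, -0.34, -0.15 and -0.35 at 1, 2, 4 and 8 weeks.

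The cytokines and relays that induce SELE and VCAM1 on endothelium were measured for 7 of 22 genes. TNF, a main inducer of both, rose by 0.97 ± 0.28 at 1 week and 1.31 ± 0.28 at 4 weeks (SE, adjusted p = 0.0269 and 0.00627), and was 0.85 ± 0.28 higher at 8 weeks without passing (adjusted p = 0.0529). CXCL8, the neutrophil chemokine, rose by 1.33, 1.18 and 1.17 at 1, 4 and 8 weeks (SE 0.28 each, adjusted p = 0.00385, 0.0134 and 0.0108). IL1RN, the antagonist of the interleukin-1 receptor, fell by 1.14 and 1.07 at 4 and 8 weeks (SE 0.31, adjusted p = 0.0291 and 0.0295). At 1 and 2 weeks IL1RN differed by -0.78 and -1.0 without passing (adjusted p = 0.102 and 0.274). CCL2, a monocyte chemokine, fell by 1.4 ± 0.41 at 1 week (SE, adjusted p = 0.0306). At 2, 4 and 8 weeks CCL2 differed by -0.95, -1.13 and -0.81 without passing (adjusted p = 0.575, 0.0987 and 0.214). The rises of TNF, CXCL8 and FLT4 lay in groups scanned on the other day than control. At 2 weeks, scanned with control, the differences at the probes used were 0.24, -0.08 and -0.17, with 0.74 at the dim other FLT4 probe. Scan day and these rises cannot be told apart.

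At 2 weeks 0 of these 7 cytokine genes were called, and the median difference was -0.08, -0.39, -0.42 and -0.52 at the 4 times. Probes of a gene did not always go the same way. CXCL8 was higher at 1, 4 and 8 weeks at 3 probes above background on 20 arrays, and a further probe above background on 12 arrays was at -2.03, -2.02 and -2.1. TNF was higher at 3 probes above background on all arrays, while the probes above background on 8 and 11 arrays were at -0.68 and -0.51 at 1 week. At 4 weeks, where the TNF probe used here was at 1.31, the other 2 probes above background on all arrays were at 0.39 and 0.38 and the dim ones at -1.23 and -1.07. Without control replicates 1 and 2 the calls of CXCL8, IL1RN and CCL2 and that of TNF at 1 week were lost, and TNF at 4 weeks was still called. Some calls also rested on single arrays, with adjusted p up to 0.1 when 1 was left out. CXCL8 at 4 weeks was lost without control replicate 1 or 4-week replicate 4, and TNF at 1 week without control replicate 1 or 4 or 1-week replicate 2 or 4. IL1RN was lost at 4 weeks without control replicate 2 or 3 or 4-week replicate 1, 2 or 4, and at 8 weeks without control replicate 2 or 3 or 8-week replicate 1, 3 or 4. CCL2 was lost without control replicate 1 or 2 or 1-week replicate 1, 3 or 4.

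Over all 20 arrays, the levels of each member were set against those of 656 other named genes, and the 5 with the highest Pearson r are given as a description. For VCAM1 at 2934 they were IGF1 (0.86), FMO1 (0.85), MT3 (0.84), AGTR1 (0.84) and MARCKSL1 (0.83). IGF1 is an anabolic growth factor of cartilage, FMO1 a drug-oxidising enzyme, MT3 a metal-binding metallothionein, AGTR1 the angiotensin II receptor and MARCKSL1 an actin-regulating kinase substrate. With group means removed the values were 0.77 to 0.83. The likeness leaned on the arrays at both ends: without 1-week replicate 4 and 2-week replicate 4 it was 0.63, 0.59, 0.47, 0.57 and 0.56. IGF1 had its lowest level, -1.13, on 1-week replicate 4 and its highest, 2.19, on 2-week replicate 4, as VCAM1 did.

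**Figure D4:**
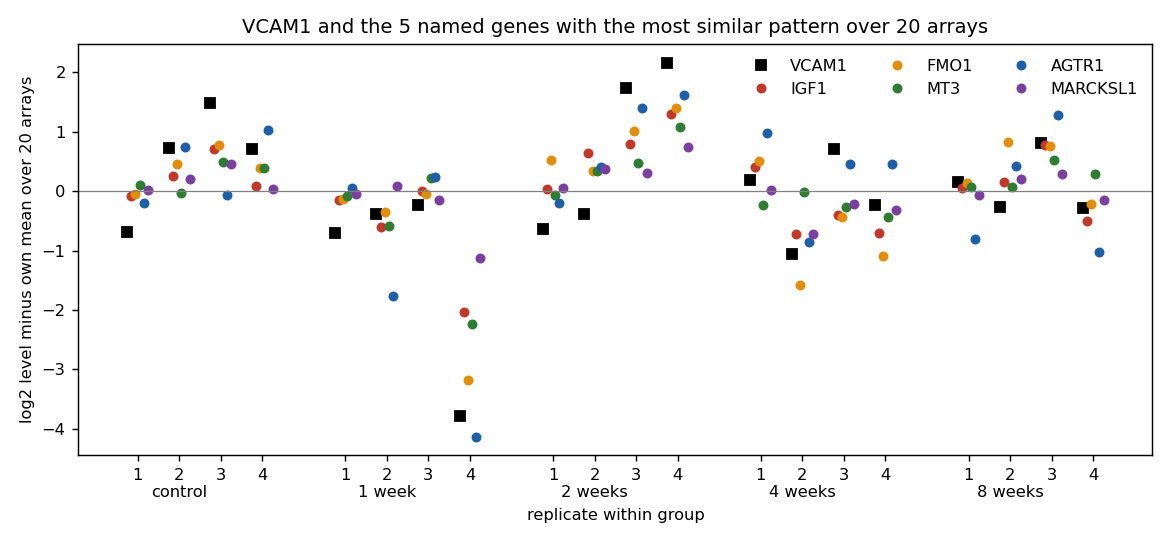
The vertical axis is the log2 level of VCAM1 at 2934 (black squares) and of IGF1, FMO1, MT3, AGTR1 and MARCKSL1 (coloured points), each minus its own mean over 20 arrays, and the horizontal axis is the array by group and replicate. All 6 are lowest on 1-week replicate 4 and highest on 2-week replicate 4.

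For KDR the most similar genes were KCNE2 (r = 0.72), ITIH3 (0.69), HYAL2 (0.67), AMHR2 (0.63) and PPP1R17 (0.62), and 0.57 to 0.69 without the 2 farthest arrays. KCNE2, a potassium channel subunit, was above background on only 8 arrays. HYAL2, a hyaluronidase, was the gene whose value was the same with group means removed (0.67). For SELE at 1828 the highest were ADCY2 (0.58), PPP3CA (0.53), ENPP1 (0.52), LOC100009168 (0.51) and HIF1A (0.51). Without the 2 farthest arrays, both of the 4-week group, ADCY2 was at 0.57 and the others at 0.28 to 0.45. These lists hold no other endothelial marker, but of the marker list only NOS3, THBD and ACE were among the genes compared, so that absence says little. Points within a group share slide and scan day.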

How the data were processed

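The members and gene lists were chosen with earlier results of these data known. Per the file headers, the authors read the arrays with Agilent Feature Extraction 10.7.1.1 (protocol GE1_107_Sep09), and the deposited processed signal is a background-subtracted intensity in linear units, in which low signals are replaced by a small positive value. The authors' deposited value table, also intensity, equalled the scanner values of its own array for 16 columns; its 4 columns for 8 weeks each matched a different 8-week array, so replicate numbers there are uncertain. It is thus linear and uncentred, and column medians ran from 28.3 to 90.2. It served as an alternative.

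Outlier spots (5 to 62 per array) were left out and 0 spots were saturated. Log2 intensity minus each array's 75th percentile was fitted with limma 3.58.1 (R 4.3.3, lmFit and eBayes) as 5 group means over 20 arrays. The filter kept probes well above background on 3 or more arrays of a group (26905 of 43603). Two-sided p-values were adjusted over the kept probes (Benjamini-Hochberg), with calls at 0.05. The number of arrays limits the precision. Labels name separate animals by group, and arrays were treated as such. Gene names were found for 2657 probes (6.09%), from the files and the RefSeq table. Each list gene is read by its kept probe of the highest mean, and each list gives up to 4 genes other than the members with the lowest F test p. One gene that this rule names is not reported here. Same-numbered arrays of different groups did not deviate together (r from -0.331 to 0.386 over 40 pairs, 8 of them over 0.1), so numbers do not pair them. On simulated data of the 1-week comparison, 55% of probes changed by 1 log2 unit and 86% of those changed by 2 were recovered. The alternatives were normexp background correction, median centring, quantile normalization, 2 other filters, fits of only the compared groups or scan day, array weights, a replicate block, the value table, and each array left out.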

Additional observations from a re-analysis of the deposited data

Results flagged for a closer look

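In 5 of the 25 groups of 4 arrays, taken over the 5 tested member probes, 1 array stood apart from the other 3 by Dixon's criterion at its 95% critical value. Chance gives about 1 in 20 such groups. These groups are not independent, since the probes share arrays and both VCAM1 cases below are 1 array at adjacent probes with an r of 0.99. The count therefore cannot be set against that rate. KDR on 8-week replicate 2 was at -3.61, below the other 8-week arrays at -2.58 to -2.43. SELE at 1300 was low on control replicate 1, at -4.94, and SELE at 1828 was low on 8-week replicate 1, at -4.65; neither array was above background at that probe. VCAM1 on 1-week replicate 4 was at -4.8 at the probe at 2874 and at -4.94 at that at 2934. That array also had the fewest spots well above background, 49.1%, and the most spots with a replaced low signal, 14027. The part of this in the VCAM1 values was not tested.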

How the results depend on the processing

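Over 30 alternatives, 860 of 900 recomputed values of 31 member results kept their direction and their side of the threshold, 36 changed sign and 4 became called. Where no single array was left out, 0 member tests were called under any setting; a filter for probes above background on all arrays kept no member. With single arrays left out the count ran from 0 to 2: KDR from 1 to 2 weeks and in the F test without 1-week replicate 2, KDR at 8 weeks without 8-week replicate 2, and VCAM1 at 2874 from 1 to 2 weeks without 2-week replicate 1. The KDR difference at 8 weeks ran from 0.55 to 0.97 and the adjusted p of its F test from 0.0346 to 0.262; with normexp they were 0.01 and 0.844. None of the values that changed sign was called.

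Under normexp correction, whose offset of 50 compresses dim probes by construction, KDR at 4 weeks was at -0.18, SELE at 1300 at 0.19 and -0.42 at 2 and 4 weeks, and SELE at 1828 at -0.16 and 0.16 at 1 and 2 weeks. SELE at 1300 at 4 weeks was at -0.07 with median centring, -0.14 with quantile normalization, -0.06 with array weights and -0.21 without control replicates 1 and 2. SELE at 1828 at 1 week was at -0.08, -0.16, -0.28 and -0.15 in the same order. Without those controls VCAM1 at 2 weeks was at -0.43 at 2874 and -0.38 at 2934. Leaving out single arrays, SELE at 1300 ran from -0.33 to 0.1 at 2 weeks and from -0.25 to 0.22 at 4 weeks. SELE at 1828 ran from -0.15 to 0.41, -0.54 to 0.52 and -0.36 to 0.02 at 1, 4 and 8 weeks, and VCAM1 at 2 weeks from -0.4 to 0.65 at 2874 and from -0.32 to 0.61 at 2934. The cause of these changes was not tested.

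Counts of all probes called moved more. They were 3732, 123, 2304 and 3436 at 1, 2, 4 and 8 weeks against control, 3056, 289 and 4 for 2, 4 and 8 weeks against 1, 1159 and 2301 for 4 and 8 against 2, 151 for 8 against 4, and 4253 in the F test. In that order normexp gave 44, 0, 28, 34, 46, 13, 0, 3, 32, 15 and 80, and keeping only probes above background on all arrays 2206, 8, 929, 2143, 1712, 142, 0, 391, 1478, 98 and 2750. Fitting only the compared groups gave 1428 at 1 week, 0 at 2 weeks, 1184, 29 and 0 against 1 week, and 249 for 8 against 4. Array weights gave 368, 5023 and 5568 at 2, 4 and 8 weeks, 934 and 273 for 4 and 8 against 1, 3526 and 3803 against 2, 1513 for 8 against 4, and 6904 in the F test. Within scan days there were 0 at 2 weeks, 192 and 1 against 1 week and 62 for 8 against 4. No filter gave 74 at 2 weeks and 38 for 8 against 1, median centring 9 for 8 against 1 and 1795 for 4 against 2, and quantile normalization 35 for 8 against 1 and 1200 for 8 against 2. Without control replicates 1 and 2, chosen after seeing the data as were the lists without 1-week replicate 4, the counts were 1479, 54, 776 and 964 against control and 2471 in the F test. Leaving out single arrays gave 2423 to 4290, 31 to 204, 1310 to 3704 and 2013 to 4713 against control, 190 to 748 and 0 to 78 for 4 and 8 against 1, 677 to 2176 and 1365 to 3320 for 4 and 8 against 2, and 90 to 414 for 8 against 4. With the replicate block the count for 8 against 1 week was 7 and no member call changed; 4 of 20 arrays correlated best with their own number.

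Median centring shifted the median of all probes from 0.03 to -0.11 at 1 week and from 0.04 to -0.12 at 8 weeks, and the share of calls that were higher from 70.4% to 50.2%, from 74.9% to 53.7% and from 66.8% to 39.4% at 1, 4 and 8 weeks. With normexp the higher and lower calls were 17 and 11 at 4 weeks and 17 and 17 at 8 weeks. Between times, median centring moved it from 34.2% to 59.8% for 2 against 1, from 78.0% to 44.2% for 4 against 2 and from 56.8% to 27.4% for 8 against 2. The FLT4 call was lost under normexp, with only the 2 groups fitted, with array weights and without control replicates 1 and 2 (adjusted p up to 0.261), and every cytokine call under normexp. CXCL8 and TNF at 1 week were also lost with only the 2 groups fitted (adjusted p = 0.0725 and 0.125), and IL1RN at 8 weeks with quantile normalization (adjusted p = 0.0587). That of NOS3 in the F test was also lost under both other scalings, normexp, no filter, the replicate block and without control replicates 1 and 2 (adjusted p up to 0.388). Dim SELE probes are limited by signal over background: 10 of 20 arrays at most.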
